A study of Mus musculus with 12 samples.

Results

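The Cyp2b genes of mouse liver encode cytochrome P450 monooxygenases of the endoplasmic reticulum. All rows of the count tables whose symbol reads Cyp2b followed by a digit were taken, which gave 5 of 23420 gene symbols: Cyp2b9, Cyp2b10, Cyp2b13, Cyp2b19 and Cyp2b23. Reads were counted on 4 of them, and Cyp2b19 had 0 counts in all 12 mice. The study asked how loss of SIAH2, a ubiquitin ligase, affects the livers of each sex. Livers of 12 mice on a C57BL/6 background were profiled at ZT10, that is 10 hours after lights on, at about 20 weeks of age. The groups of 3 mice were wild type females (WTF), Siah2 KO females (KOF), wild type males (WTM) and Siah2 KO males (KOM). The Siah2 deletion was carried in the whole body, and the 2 genotypes came from related lines set up after a heterozygous intercross, so that line and genotype cannot be told apart. The sample labels speak of RNA pooled from 3 mice while the study's methods describe livers of individual mice, and nothing says that the samples came from separate cohorts, so p-values measure only the spread between these samples.

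P450 enzymes of this subfamily oxidize drugs, steroids and other lipophilic compounds with electrons passed on by P450 oxidoreductase. Cyp2b10 is the textbook target of the nuclear receptor CAR, which is activated by phenobarbital, and is also responsive to the related receptor PXR. Cyp2b9 and Cyp2b13 are known for their female-predominant expression in adult mouse liver, which depends on the sex-specific pattern of pituitary growth hormone and on the transcription factors that act below it.

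On GRCm38, the build that the submitters' processing notes name as mm10, the 5 genes lie on chromosome 7 within 875 kb. From the lower to the higher coordinate, Cyp2b10 spans 25897658 to 25926624, Cyp2b13 spans 26061388 to 26096197 and Cyp2b9 spans 26173350 to 26210661, all on the plus strand. Cyp2b23 (26665227 to 26686430, minus strand) and Cyp2b19 (26757142 to 26772630, plus strand) follow beyond Cyp2a4. Cyp2b13 and Cyp2b9 are neighbours with 77.2 kb between them. The promoters of the 3 genes with most reads are shown because the pair found almost only in females has nearly the same one. RefSeq's windows of 300 bases, 250 before and 50 after a start site, were identical at 298 positions between Cyp2b9 and Cyp2b13, and the 2 differences were T48C and C104T (Cyp2b9 base, position counted from 1 at the 5′ end of the window, Cyp2b13 base). Cyp2b10 matched Cyp2b9 at 71.7% of aligned positions. The start site of these windows is that of the promoter table, which for Cyp2b10 is the first base of the gene span given above, and for Cyp2b9 and Cyp2b13 lies 59 and 107 bases inside it. The 250 bases before that site, on the plus strand, are given with capitals for bases that differ from Cyp2b13 in the case of Cyp2b9, and from Cyp2b9 in the case of the other 2.
Cyp2b9, chr7:26173159-26173408: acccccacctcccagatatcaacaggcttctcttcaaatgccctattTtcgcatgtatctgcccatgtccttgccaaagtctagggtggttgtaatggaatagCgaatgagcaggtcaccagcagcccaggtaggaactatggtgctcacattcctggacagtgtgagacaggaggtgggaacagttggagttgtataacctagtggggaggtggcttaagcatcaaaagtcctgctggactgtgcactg
Cyp2b13, chr7:26061245-26061494: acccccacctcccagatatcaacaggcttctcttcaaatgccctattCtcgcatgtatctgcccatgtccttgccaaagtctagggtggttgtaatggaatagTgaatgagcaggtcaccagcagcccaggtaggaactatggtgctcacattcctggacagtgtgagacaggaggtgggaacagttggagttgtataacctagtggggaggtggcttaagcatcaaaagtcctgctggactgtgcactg
Cyp2b10, chr7:25897408-25897657: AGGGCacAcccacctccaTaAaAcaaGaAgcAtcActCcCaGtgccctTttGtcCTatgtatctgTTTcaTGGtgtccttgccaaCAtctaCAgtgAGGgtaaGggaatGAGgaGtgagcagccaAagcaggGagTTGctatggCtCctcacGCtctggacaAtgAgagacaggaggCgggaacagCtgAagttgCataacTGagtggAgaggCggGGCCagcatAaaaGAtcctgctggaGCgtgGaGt

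In GENCODE M1 transcripts, the coding sequences of Cyp2b9 and Cyp2b13 were less alike than their promoters, with 92.55% identity. That of Cyp2b10 was 87.74% identical to Cyp2b9 and 88.55% to Cyp2b13, more than its promoter window (71.7% in both pairs). Reads of the QuantSeq method start near the poly(A) tail, where the last 500 bases were 79.0% identical between Cyp2b9 and Cyp2b13. None of the 451 windows of 50 bases in the end of Cyp2b9 occurred in the end of another of these genes. Between Cyp2b13 and Cyp2b10, 34 of 451 such windows (7.54%) were shared, and 0 of 401 windows of 100 bases were. No source used here says how reads that match several genes were handled, so part of the Cyp2b10 counts in females could belong to Cyp2b13 and the reverse. Since 1 read stands for the end of 1 transcript, and the transcripts of Cyp2b9 and Cyp2b13 are 1876 bases long and that of Cyp2b10 is 1916 bases long, levels of these genes were set side by side without a length correction.

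The libraries held 1293688 to 4056144 counted reads each, and levels are given as CPM, the count relative to the TMM-scaled total of its library. A wild type female, mouse 1091, stood apart from the other 2 of its group. Its chi-square per degree of freedom against them was 42.0 and 45.0, compared with 6.71 to 21.8 for all other pairs of mice within a group, and results that rest on it are given without it too. Siah2 itself was 13.5 ± 2.93 CPM (SD, n = 3) in WTF, 10.7 ± 1.57 in KOF, 21.7 ± 5.15 in WTM and 13.9 ± 4.05 in KOM. No source used here places its 3′ tag against the deletion, and the reads therefore do not check the genotype labels. The liver label could be checked: the 12 hepatocyte markers, albumin among them, were all detected in each mouse. The low-count filter of edgeR kept Cyp2b9, Cyp2b10 and Cyp2b13 in the fits that hold females and none of the 5 rows in the fit of the 6 males, where single genes are therefore given from the fit of all 12 mice.

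Cyp2b9 was the most abundant of the family in each female. It measured 152, 159 and 271 CPM in WTF (mice 1089, 1090 and 1091) and 226, 212 and 230 CPM in KOF (mice 1070, 1104 and 1105). In males it measured 1.52, 2.00 and 0 CPM in WTM (mice 1055, 1086 and 1087) and 1.88, 1.73 and 0.982 CPM in KOM (mice 1075, 1076 and 1081). Each female of a genotype lay above each male of it, while the genotypes overlapped within each sex. The male values stood on 6 reads in the 3 WTM mice and 13 reads in the 3 KOM mice, so the order of those 2 groups cannot be read from them. Mouse 1087 had 0 Cyp2b9 reads, which allows up to 0.925 CPM (3 counts).

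Cyp2b13 was lower than Cyp2b9 in each female and nearly absent from males. Its level was 108, 83.9 and 174 CPM in WTF and 88.3, 104 and 53.8 CPM in KOF. The 3 WTM mice had 0 reads, and the KOM mice had 0, 1 and 1 read, that is 0, 0.432 and 0.246 CPM. As with Cyp2b9, no male overlapped a female, and the female genotypes overlapped.

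Cyp2b10, the CAR-responsive member, was detected in all 12 mice at a low level. It measured 21.5, 35.5 and 14.3 CPM in WTF and 24.2, 20.5 and 39.5 CPM in KOF. In males it measured 3.05, 8.51 and 6.47 CPM in WTM and 3.00, 1.30 and 1.72 CPM in KOM. The lowest female had 14.3 CPM and the highest male 8.51 CPM, so the sexes were apart, though by far less than for the other 2 genes. Cyp2b23, whose function in liver is little studied, ranged from 0.500 to 4.19 CPM on 1 to 8 reads per mouse, and males and females overlapped in both genotypes.

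**Figure D1:**
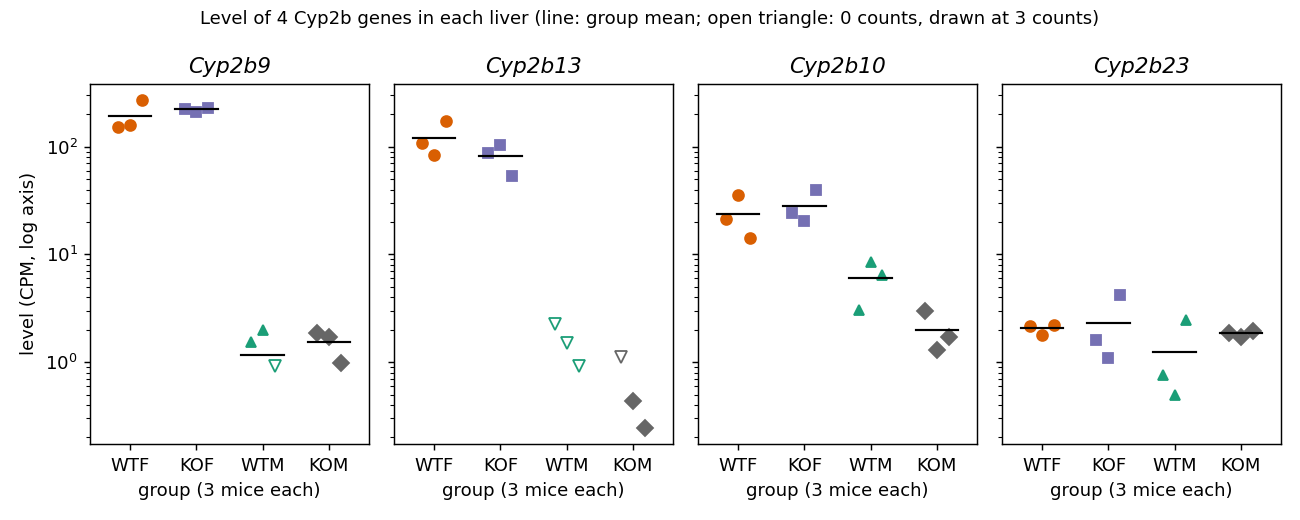
Level in CPM (log axis) of Cyp2b9, Cyp2b13, Cyp2b10 and Cyp2b23 in each of 12 livers, by group (WTF, KOF, WTM and KOM, 3 mice each). Lines are group means that stand on more than 3 reads, and open triangles are mice with 0 reads, drawn at the level of 3 reads. Females range from 53.8 to 271 CPM for Cyp2b9 and Cyp2b13 and no male exceeds 2.00 CPM, Cyp2b10 differs by less, and Cyp2b23 overlaps between the sexes.

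Females were compared with males within each genotype in the fit of all 12 mice. Cyp2b9, Cyp2b13 and Cyp2b10 were higher in females in both genotypes, while 2.27% of 9806 genes were called higher in females in wild type and 1.75% in Siah2 KO. These 3 genes passed the low-count filter only through the females, where they are high, so their number is not read against that share. Cyp2b23 and Cyp2b19 were not tested. Pooled over the 3 mice, Cyp2b9 was 213-fold higher in WTF than in WTM (95% counting interval 97.7 to 581) and 155-fold higher in KOF than in KOM (90.2 to 291). Its log2 fold change was 7.62 (SE 0.49, adjusted p = 2.1e-07, edgeR's quasi-likelihood test) in wild type and 7.22 (SE 0.44, adjusted p = 2.38e-07) in Siah2 KO. In both comparisons of this fit it had the smallest p of all 9806 genes tested. By DESeq2 and by limma-voom other genes had smaller adjusted p values in both comparisons. Intervals and limits from counts cover counting error only and leave out the spread between mice. No molecular identifiers are named for these reads, so copies of a molecule may count as separate reads.

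Cyp2b13 was at least 266-fold higher in WTF than in WTM, with the 0 reads of WTM set at 3 counts over the group (adjusted p = 7.37e-07, edgeR). In Siah2 KO it was 392-fold higher in females, an estimate on 2 male reads with a counting interval of 108 to 3244 (adjusted p = 9.0e-07, edgeR). By p in this edgeR fit it ranked 7 of 9806 genes in wild type and 10 in Siah2 KO. Its fitted log2 fold changes, 11.39 and 8.28, depend on the prior count where a group has so few reads and are no measure of a difference between the genotypes.

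Cyp2b10 was 3.76-fold higher in WTF than in WTM (counting interval 2.70 to 5.37), with a log2 fold change of 1.92 (SE 0.42, adjusted p = 0.0135, edgeR). In Siah2 KO it was 13.1-fold higher in females (8.11 to 22.6), with a log2 fold change of 3.76 (SE 0.47, adjusted p = 0.000136). The wild type call was the weakest of the 6. It was lost when only the 6 wild type mice were fitted (log2 fold change 1.95, adjusted p = 0.0647) and without WTM 1055 (1.67, adjusted p = 0.0598) or WTM 1087 (1.97, adjusted p = 0.0629), while the other 5 calls remained in each alternative. Each female above each male, the pattern of all 3 genes, was seen for 11.5% of genes in wild type and 14.5% in Siah2 KO.

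All Cyp2b reads were also summed, since a sum does not depend on how reads were split between similar genes. The sum was 284, 280 and 462 CPM in WTF, 340, 338 and 328 CPM in KOF, 5.33, 11.0 and 8.94 CPM in WTM and 6.76, 5.18 and 4.91 CPM in KOM. Tested as 1 row, it was higher in females by a log2 fold change of 5.29 (SE 0.29, adjusted p = 5.11e-08, edgeR) in wild type and 5.90 (SE 0.30, adjusted p = 1.42e-08) in Siah2 KO. These livers are mixtures of cells, and fewer cells that express a gene cannot be told apart from less RNA per cell. Some markers of Kupffer and other immune cells also differed by sex: of 15 tested, 5 were higher in females in each genotype. Of all genes, 2.27% were called higher in females in wild type and 1.75% in Siah2 KO. The low-count filter kept 16 of these markers in the 6 females and 9 in the 6 males. Some thus passed only through the females, and their number is not read against that share. Summed over the 19 marker genes in the tables, their level was 566 to 778 CPM in WTF, 438 to 1002 in KOF, 116 to 703 in WTM and 132 to 288 in KOM, with 13 of the 19 detected in all 12 mice and Emr1, Cd68, Cd3e, Cd79a, S100a8 and S100a9 at 0 in some mice. The 12 hepatocyte markers summed to 69761 to 73345 CPM in WTF, 57930 to 71753 in KOF, 55968 to 63228 in WTM and 52385 to 59377 in KOM. Of these 12, 2 were called higher in wild type females, Fga (1.04, adjusted p = 0.0152, edgeR) and Trf (0.72, adjusted p = 0.0475). In Siah2 KO 1 was lower in females, Serpina1c (−1.41, adjusted p = 0.000773, edgeR), beside 1.84% of all genes. The part of either in the Cyp2b results was not tested.

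The make-up of the family differed between the sexes. In WTF, 56.9% of 3184 Cyp2b reads were Cyp2b9, 35.5% were Cyp2b13 and 7.04% were Cyp2b10. In KOF, 65.9% of 2734 reads were Cyp2b9, 25.7% were Cyp2b13 and 7.75% were Cyp2b10. Males had 58 Cyp2b reads in WTM, of which 72.4% were Cyp2b10, and 50 in KOM, of which 36% were. Cyp2b10 made up 3.09% to 12.7% of the reads in the 6 females and 25% to 77.3% in the 6 males, with no overlap (exact permutation p = 0.00216, two-sided, the smallest that 6 against 6 allow). That test pooled the genotypes, although the shares of WTM (57.1% to 77.3%) and KOM (25% to 44.4%) did not overlap. Within each genotype the sexes were apart too, with a median of 7.59% in WTF against 72.4% in WTM and of 7.12% in KOF against 35% in KOM (exact permutation p = 0.1 each, the smallest that 3 against 3 allow). A share of family reads needs no scaling to the library total. It was tested after its values had been seen, as were the other shares and ratios here. The share of a male is imprecise: WTM 1055 had 4 Cyp2b10 reads of 7, with a 95% Wilson interval of 25.0% to 84.2%.

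**Figure D2:**
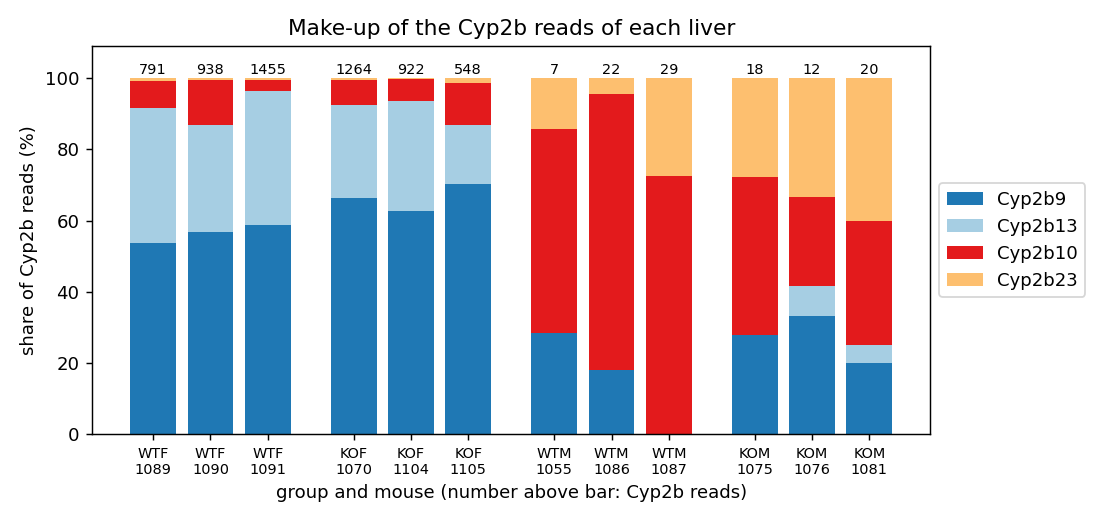
Share of the Cyp2b reads (%) that fell on Cyp2b9, Cyp2b13, Cyp2b10 and Cyp2b23 in each of 12 livers, labelled by group and mouse, with the number of Cyp2b reads above each bar. Bars of females, on 548 to 1455 reads, are mostly Cyp2b9 and Cyp2b13, and bars of males, on 7 to 29 reads, are mostly Cyp2b10 in WTM and divided among Cyp2b10, Cyp2b9 and Cyp2b23 in KOM.

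Siah2 KO and wild type were compared within each sex to ask whether loss of SIAH2 changed these levels. In females, 0 of 3 family members passed the test, and of all 9465 genes tested 0% were called (1478 at an unadjusted p under 0.05, and 305 genes called by DESeq2 and 0 by limma-voom). Cyp2b9 was 194 ± 66.9 CPM (SD, n = 3) in WTF and 223 ± 9.68 CPM in KOF, a log2 fold change of 0.19 with a 95% interval of −0.41 to 0.78 (adjusted p = 0.797, edgeR). Cyp2b13 was 122 ± 46.7 and 82.2 ± 25.9 CPM, a log2 fold change of −0.57 with an interval of −1.31 to 0.16 (adjusted p = 0.443, edgeR). Cyp2b10 was 23.8 ± 10.8 and 28.1 ± 10.0 CPM, a log2 fold change of 0.21 with an interval of −0.63 to 1.04 (adjusted p = 0.846, edgeR). The differences were within the spread between mice, and the intervals leave room for changes of up to 2.06-fold upward for Cyp2b10 and down to 0.403-fold for Cyp2b13. All 3 genes overlapped between the female genotypes, whereas 23.4% of genes tested did not.

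These values moved with wild type female 1091, which had the highest Cyp2b9 and Cyp2b13 and the lowest Cyp2b10 of its group. Without it, the log2 fold change was 0.52 for Cyp2b9 (adjusted p = 0.0763, edgeR), −0.21 for Cyp2b13 (adjusted p = 0.662) and −0.07 for Cyp2b10 (adjusted p = 0.917), and none of the 3 was called while 936 genes were. The family sum had a log2 fold change of −0.04 with all 6 females (interval −0.61 to 0.53, adjusted p = 0.965, edgeR) and 0.25 without mouse 1091 (adjusted p = 0.368).

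Cyp2b13 relative to Cyp2b9, its neighbour with nearly the same promoter, was set side by side within each female, where differences in the total cancel. Per 100 Cyp2b9 reads there were 70.6, 52.8 and 64.1 Cyp2b13 reads in WTF and 39.0, 49.3 and 23.4 in KOF. All 3 KOF mice lay below all 3 WTF mice, by 0.80 on the log2 scale (geometric means 0.621 in WTF and 0.356 in KOF), and the two-sided exact permutation p was 0.1, the smallest that 3 against 3 allow. Of single genes, 23.4% were apart between these groups, and the ratio was chosen after its values were seen. The difference stayed between −1.04 and −0.50 when mice were left out singly, and it was −0.78 without mouse 1091. Cyp2b10 per Cyp2b9 overlapped between the genotypes (difference 0.03 on the log2 scale, exact permutation p = 1).

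**Figure D3:**
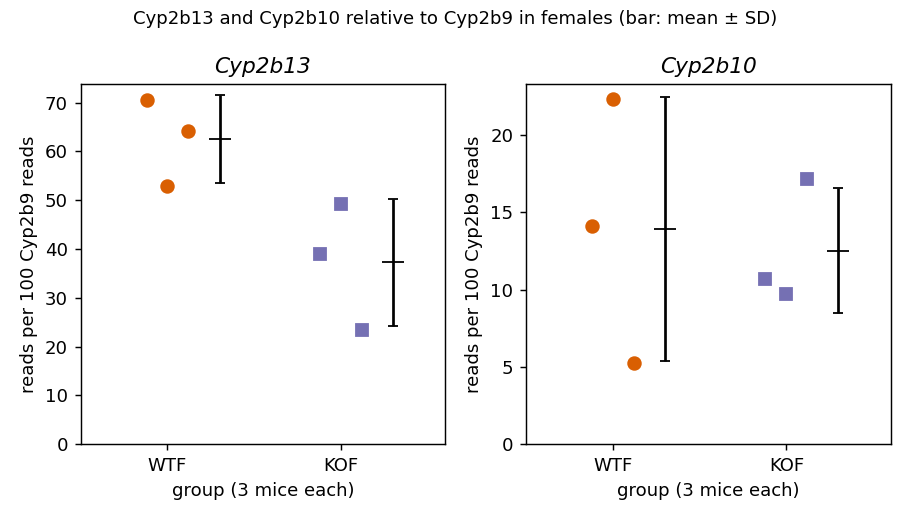
Reads of Cyp2b13 (left) and Cyp2b10 (right) per 100 reads of Cyp2b9 in each wild type (WTF) and Siah2 KO (KOF) female, with the mean ± SD of 3 mice beside the points. For Cyp2b13 the KOF mice, between 23.4 and 49.3, sit below the WTF mice, between 52.8 and 70.6, and for Cyp2b10 the groups overlap.

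In males, Cyp2b10 was 6.01 ± 2.76 CPM (SD, n = 3) in WTM and 2.01 ± 0.890 CPM in KOM, on 42 and 18 reads. The groups did not overlap, but only just, with 3.05 CPM in the lowest WTM mouse (4 reads) and 3.00 CPM in the highest KOM mouse (8 reads), and 8.93% of 9806 genes were apart in this way. Its log2 fold change was −1.63 (SE 0.53, 95% interval −2.75 to −0.50, unadjusted p = 0.00752) and did not pass the test (adjusted p = 0.9997, edgeR, 12 mice). In that fit 0% of 9806 genes were called, with 225 at an unadjusted p under 0.05, and in the fit of the 6 males 0% of 8823 were called, with 357 (DESeq2 called 6, Cyp2b10 not among them, and limma-voom 0). Of the Cyp2b reads, Cyp2b10 made up 25% to 44.4% in KOM and 57.1% to 77.3% in WTM (exact permutation p = 0.1, two-sided, the smallest possible). Cyp2b9, on 6 and 13 reads, had a fitted change of 1.52-fold with a 95% interval of 0.488 to 4.72 (adjusted p = 0.9997, edgeR, 12 mice). No fold is given for Cyp2b13, on 0 and 2 reads. The sum had a log2 fold change of −0.64 (interval −1.46 to 0.18, adjusted p = 0.9999, edgeR, 6 mice).

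To ask whether the genotype effect depended on sex, the log2 change of males was subtracted from that of females, a contrast for which 0.255% of 9806 genes were called. For Cyp2b10 this difference was 1.84 on the log2 scale (SE 0.64, interval 0.48 to 3.20, unadjusted p = 0.0112, adjusted p = 0.198, edgeR), so the larger sex difference in Siah2 KO (13.1-fold against 3.76-fold) did not pass the test. It stayed positive with each mouse left out in turn (1.54 to 2.22) and under each other setting, with adjusted p values from 0.0604 to 0.384. Cyp2b9 gave −0.40 (interval −2.12 to 1.31, adjusted p = 0.888) and the sum 0.61 (interval −0.22 to 1.44, adjusted p = 0.536). No value is given for Cyp2b13, since both male groups were under 3 counts.

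**Figure D4:**
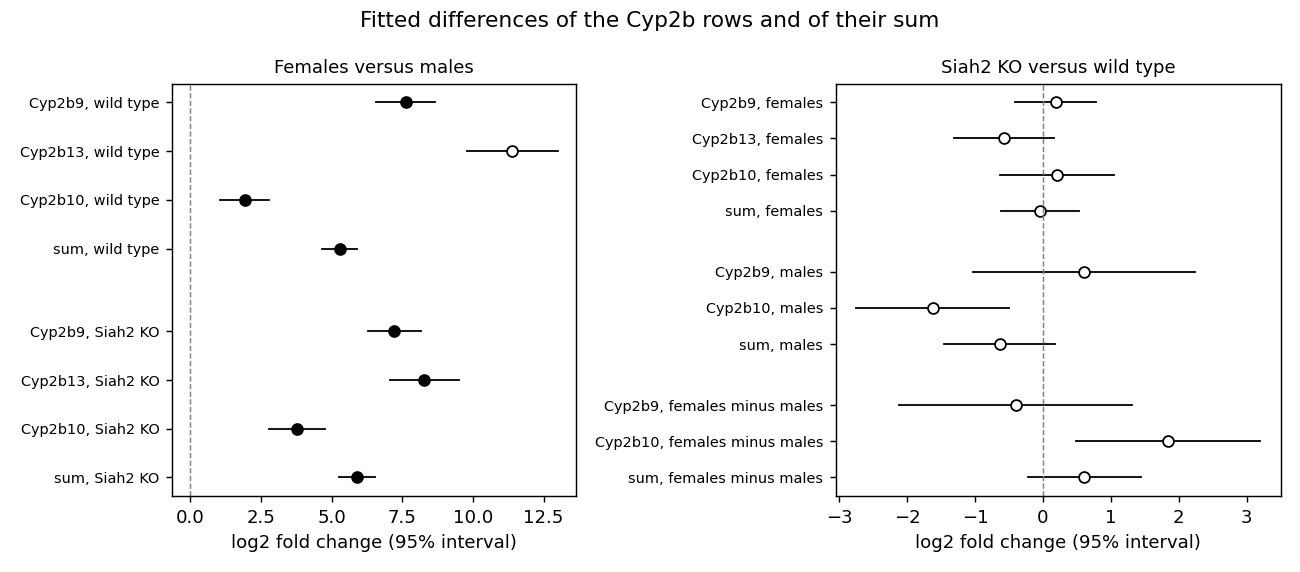
Log2 fold changes (points) with 95% intervals (lines) from edgeR, for females against males (left, by genotype) and for Siah2 KO against wild type (right, in females, in males, and females minus males). Filled points passed an adjusted p of 0.05. The open point of Cyp2b13 in wild type also passed, but its size rests on a male group with 0 reads, and Cyp2b13 is left out where both male groups are under 3 counts. All points on the left are above 0, from 1.92 to 11.39, and no point on the right passed.

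The receptors and partners through which Cyp2b10 is induced were described next. Nr1i3, which encodes CAR, was 8.43 ± 2.38 CPM in WTF, 12.7 ± 3.73 in KOF, 8.99 ± 5.22 in WTM and 7.29 ± 2.31 in KOM (SD, n = 3), and it passed none of the 5 comparisons. Nr1i2, which encodes PXR, was 134 ± 38.0 CPM in WTF, 65.2 ± 10.4 in KOF, 68.7 ± 16.0 in WTM and 85.7 ± 15.6 in KOM. It was higher in females than in males in wild type (log2 fold change 0.98, SE 0.25, adjusted p = 0.0361, edgeR) and not called in Siah2 KO (−0.39, adjusted p = 0.442). The 3 KOF mice lay below the 3 WTF mice for Nr1i2, as 23.4% of genes were apart in one direction or the other, without passing the test in females (−1.05, adjusted p = 0.121, edgeR) or for the difference between the sexes (−1.37, adjusted p = 0.104). Among 17 receptors, coactivators, corepressors and chaperones of this pathway, all tested, 2 were higher in wild type females, beside 2.27% of all genes. They were Nr1i2 and the CAR-retaining chaperone Dnajc7 (1.37, adjusted p = 0.0407, edgeR). In Siah2 KO 2 were lower in females, beside 1.84% of all genes. They were Egfr (−1.78, adjusted p = 0.00463, edgeR), whose signal keeps CAR in the cytoplasm, and Hsp90aa1 (−1.24, adjusted p = 0.0193), a heat shock protein of the cytoplasmic CAR complex.

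Other target genes of CAR and PXR went both ways between the sexes. Of 34 tested, 5 were higher and 2 lower in wild type females than males, and 5 were higher and 1 lower in Siah2 KO, with median log2 fold changes of −0.04 and −0.05 beside 0.02 and 0.00 over all genes tested. Of all genes, 2.27% and 1.75% were higher in females and 2.88% and 1.84% lower. Those named by size were the sulfotransferase Sult2a1 (10.42 in wild type, adjusted p = 0.0493, and 10.85 in Siah2 KO, adjusted p = 0.0335, edgeR), the transporter Slco1a4 (1.31, adjusted p = 0.00619, and 1.74, adjusted p = 0.000607) and the P450 Cyp2c37 (1.28, adjusted p = 0.00774, and 1.39, adjusted p = 0.00496). Sult2a1 had 0 reads in both male groups, so the size of its fitted change depends on the prior count. Lower in females were the glucuronosyltransferase Ugt2b35 (−1.21, adjusted p = 0.0152) and Fmo5 (−0.86, adjusted p = 0.0274) in wild type and Aldh1a1 (−0.82, adjusted p = 0.0242) in Siah2 KO. The CAR target Cyp2c29 was not called in any comparison, at 966 ± 146 CPM in WTF, 1210 ± 333 in KOF, 1118 ± 134 in WTM and 1048 ± 220 in KOM, and neither was the PXR target Cyp3a11 (2213 ± 1161, 3609 ± 1737, 4807 ± 471 and 3960 ± 495 CPM in the same order). By Siah2 genotype 0 genes of either list were called in females or males, beside 0% of all genes tested.

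P450 enzymes need heme and an electron donor. Por, the P450 oxidoreductase, was 351 ± 186 CPM in WTF, 435 ± 81.5 in KOF, 244 ± 101 in WTM and 271 ± 18.1 in KOM, and Alas1, which encodes the rate-limiting enzyme of heme synthesis in liver, was 91.0 ± 22.8, 187 ± 54.8, 97.0 ± 86.3 and 137 ± 25.9 CPM in that order. Neither passed any comparison. For Alas1 the change in females was 1.02 (SE 0.29, unadjusted p = 0.00554, adjusted p = 0.142, edgeR). Of 13 genes tested in this group 1 was called by sex, Cyb5r3, a reductase of cytochrome b5, lower in Siah2 KO females than males (−0.69, adjusted p = 0.0457, edgeR), and 0 by genotype. Over all genes, 1.84% were called lower in Siah2 KO females, and 0% by genotype in either sex.

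Genes known to set sex-dependent transcription in liver were measured beside the family. Cux2, a female-specific repressor, was 3.10 ± 1.37 CPM in WTF and 4.53 ± 2.67 in KOF, on 28 and 34 reads, against 1 read in WTM and 0 in KOM. It passed in Siah2 KO (adjusted p = 0.008) and missed in wild type (adjusted p = 0.0516). Trim24 was higher in females in both genotypes (1.45, adjusted p = 0.00744, and 1.90, adjusted p = 0.000974, edgeR). Foxa3 was lower in females in Siah2 KO (−1.68, adjusted p = 0.00173, edgeR) and not called in wild type (0.10, adjusted p = 0.694). Its change by genotype in females, −1.62, did not pass the test (adjusted p = 0.0793, edgeR). Of 21 such regulators tested, 1 was higher in females in wild type, and 2 were higher and 1 lower in Siah2 KO. Of all genes, 2.27% and 1.75% were higher in females, and 1.84% were lower in Siah2 KO. Stat5b, which carries the growth hormone signal, was 119 ± 28.3, 111 ± 19.2, 163 ± 46.9 and 155 ± 36.3 CPM in WTF, KOF, WTM and KOM, and Bcl6, a male-predominant repressor, was 17.7 ± 3.85, 10.1 ± 2.16, 50.4 ± 39.6 and 19.8 ± 8.03 CPM. Onecut1, also called Hnf6, was between 2.69 and 13.0 CPM in all mice. These 3 passed no comparison. Of 21 female-biased liver genes outside the family, 15 were higher in females in wild type and 17 in Siah2 KO, beside 2.27% and 1.75% of all genes. Of 22 male-biased ones 15 and 20 were lower, beside 2.88% and 1.84% of all genes. The low-count filter kept 22 of the female-biased genes in the fit of females alone and 5 in that of males alone. Of the male-biased ones it kept 17 and 22. Genes of both lists, most of the female-biased ones among them, thus passed only through the sex where they are high. Their numbers are not read against those shares. Both lists had been written from known liver biology, with earlier results of these data in view.

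The chromosomal neighbours of the family included genes with and without a sex difference. Cyp2a4, a steroid hydroxylase gene that lies next to Cyp2b9, was 405 ± 93.6 CPM in WTF and 385 ± 235 in KOF against 0.523 ± 0.227 in WTM and 1.90 ± 0.306 in KOM (log2 fold changes 9.64 and 7.64, adjusted p = 2.1e-07 and 3.22e-07, edgeR). Cyp2a22 was also higher in females (5.06, adjusted p = 0.00498, and 5.97, adjusted p = 0.00122). Between them lie Cyp2b23 and Cyp2b19, described above, Cyp2g1, which was at most 7.89 CPM, and Cyp2a5, which was 714 ± 199 CPM in WTF and 649 ± 167 in WTM and was not called by sex (0.14, adjusted p = 0.866, in wild type). Cyp2a4 and Cyp2a5 are close paralogs, so reads between them may be shared and their split is uncertain. On the far side, Cyp2f2 was lower in females in Siah2 KO (−0.71, adjusted p = 0.0414) and not called in wild type (−0.37, adjusted p = 0.274). Of 7 neighbours tested by sex, 2 were higher in females in each genotype, beside 2.27% and 1.75% of all genes. In Siah2 KO 1 was lower, beside 1.84% of all genes. The 2 higher ones, Cyp2a4 and Cyp2a22, did not pass the low-count filter in the fit of males alone. Their number is not read against the share of all genes. By Siah2 genotype 0 of 8 tested in females and 0 of 5 tested in males were called, beside 0% of all genes tested.

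**Figure D5:**
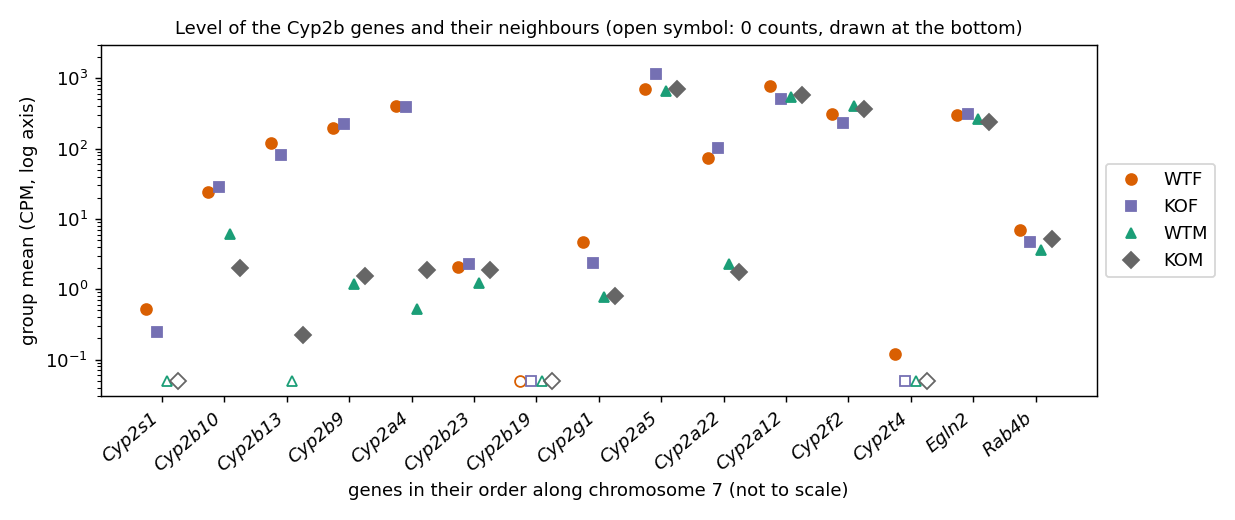
Group means in CPM (log axis) of the 5 Cyp2b genes and 10 neighbours, in their order along chromosome 7 but not to scale, for WTF, KOF, WTM and KOM (3 mice each). Open symbols are groups with 0 reads, drawn at the bottom. Cyp2b13, Cyp2b9, Cyp2a4 and Cyp2a22 separate the sexes most, while Cyp2a5, which lies among them, is between 649 and 1139 CPM in all 4 groups.

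The genes most like each member over the 12 mice were those with the smallest root mean square difference of centred log2 CPM, searched over 9803 genes. Among those of Cyp2b9 were Xist (0.566) and Cyp2c40 (0.759), and Cyp2b13 lay nearest to Xist (0.500), Cyp2c40 (0.639) and Cyp2c69 (0.681). The difference between Cyp2b9 and Cyp2b13 themselves was 0.527. Cyp2b10 had another set of nearest genes, Slc16a5 (0.481), Ccl6 (0.493) and Fmo2 (0.559), and lay 2.15 from Cyp2b9 and 2.13 from Cyp2b13. Slc16a5, a monocarboxylate transporter family member, was 40.5 ± 4.06 CPM in WTF, 47.3 ± 5.46 in KOF, 9.38 ± 7.50 in WTM and 3.80 ± 0.613 in KOM.

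The promoter windows printed above, with the 50 bases after the start site included, were searched on both strands for letters bound by factors of these pathways. The STAT motif TTCNNNGAA was in none of the 5 Cyp2b windows and in 8.3% of 32851 RefSeq windows of the same length. The C/EBP-like letters TTGCNNAA occurred 1 time in each, at −180 in Cyp2b9 and Cyp2b13 (TTGCCAAA) and at −58 in Cyp2b10 (TTGCATAA), and in 10.8% of all windows. The nuclear receptor half-site AGGTCA was at −138 in Cyp2b9 and Cyp2b13, at −164 in Cyp2b23 and at −121 in Cyp2b19. It was not found in the window of Cyp2b10, and was in 16.3% of all windows. The E-box CACGTG and the D-box TTANGTAA, to which clock factors bind, were in none of the 5 windows and in 7.15% and 2.32% of all. The positions where Cyp2b9 and Cyp2b13 differ, at −203 and −147, fell within none of these matches. A match is a run of letters and not a shown binding site, and regulatory elements can lie outside such a short window.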

How the data were processed

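Liver RNA of 12 mice was made into 3′ end libraries with the QuantSeq kit of Lexogen. Reads were trimmed, mapped and counted on Illumina's BaseSpace platform, and the authors deposited raw read counts per gene symbol in 2 tables, 1 per sex, with no normalization. The submitters' processing notes name STAR, DESeq and mm10, while annotation and versions are not named in those sources. Columns were matched to samples by mouse number. Date-like symbols made by spreadsheet software (27 rows, 0.228% to 0.272% of the counts) were kept in the totals.

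Comparisons used edgeR 4.0.16 in R 4.3.3 (filterByExpr, TMM scaling, two-sided quasi-likelihood test, Benjamini-Hochberg adjustment over all genes tested, threshold 0.05). Siah2 KO and wild type were compared within each sex on 6 mice, as in the study, and sexes and the difference between sexes on all 12. DESeq2 1.42.0, limma 3.58.1 (voom), RLE scaling, other filters, other sets of mice and each mouse left out in turn were the alternatives. CPM is the count over the TMM-scaled total, log2 CPM for likeness used a prior count of 3, and a count of 0 was given a limit of 3 counts. Exact permutation tests used scipy 1.17.1, alignments Biopython 1.88 and figures matplotlib 3.10.9. Promoters and positions came from RefSeq on GRCm38.p6, and transcript sequences from GENCODE M1.

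In a simulation on the means and totals of these libraries, where 200 genes were shifted by 2 on the log2 scale, edgeR found 81.0% of them for Siah2 KO against wild type in females (9465 genes), 91.5% in males (8823 genes), 89.0% and 88.0% between the sexes in wild type and Siah2 KO, and 65.5% for the difference between the sexes (9806 genes each). The shifted genes were drawn only from those above a floor of mean count, so these shares do not cover genes with few reads. Counts were drawn for each gene alone with the spread that edgeR had estimated, so no simulated library stood apart as mouse 1091 did. The share for females may therefore be too high for these libraries. For the difference between the sexes, only KOF was shifted. No Cyp2b row was among the genes simulated for the 6 males, and the share there does not apply to the family.

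Members and lists were chosen with earlier results of these data known. Named genes were the Cyp2b rows, Siah2, 10 regulators, targets and cofactors (Nr1i3, Nr1i2, Por, Alas1, Cyp2c29, Cyp3a11, Stat5b, Bcl6, Cux2 and Onecut1), the cluster neighbours, up to 3 called genes a direction and list with at least 10 CPM, and the 3 most alike genes a member. Of the alike genes, 1 is not reported here. Slc16a5 was picked for its levels after they were seen, and immune markers at 0 in some mice were named for that. Lists of pericentral and periportal hepatocyte genes and of endothelial, stellate, bile duct, red blood, fat and acinar cells were also fixed, and sex-linked genes served as a check.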

Additional observations from a re-analysis of the deposited data

How the results depend on the processing

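Under the alternatives, 337 recomputed values were counted as the same and 44 were not. A fold change had to keep its direction and side of the threshold, and a level had to stay within the spread. A number of genes called only had to be of similar size, so that 742 by DESeq2 counted as the same as 505 (females against males, wild type). Fits that left out a mouse of a group not compared were included. Between the sexes, the calls of Cyp2b9, Cyp2b13 and the family sum remained in every alternative in both genotypes, as did that of Cyp2b10 in Siah2 KO. In wild type, the log2 fold change of Cyp2b10 was 1.95 with only the 6 mice compared (adjusted p = 0.0647, edgeR) and 1.55 to 2.21 with each mouse left out, the call being lost without WTM 1055 or WTM 1087. Within females, Cyp2b10 ranged from −0.10 to 0.61 and the family sum from −0.17 to 0.25 with each mouse left out, and the sum was 0.000248 by limma-voom. The difference between the sexes in the genotype effect of Cyp2b9 ranged from −1.43 to 0.46, with the sign turning without WTM 1087, the male with 0 Cyp2b9 reads. Cyp2b9 in KOF was 249 CPM on totals without Rn45s. The causes were not tested.

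Counts of genes called over all genes moved more than the family did. In females, Siah2 KO against wild type, DESeq2 called 305 genes, a fit without the filter 484, a fit of all 12 mice 427, and fits with each mouse left out 0 to 936. In males the counts were 6 by DESeq2, 29 without the filter and 0 to 3 with each mouse left out. Between the sexes in wild type they were 802 without the filter, 130 with 6 mice and 201 to 1043 with each mouse left out, and in Siah2 KO 664, 1044 and 150 to 972. For the difference between the sexes, DESeq2 called 267, a fit without the filter 325, and fits with each mouse left out 0 to 522. The filter removed every single Cyp2b gene from the edgeR fit of the 6 males. By genotype in males, Cyp2b10 was −1.61 by DESeq2, −1.59 without the filter and −1.97 to −1.44 in the 4 fits with a mouse left out that kept it, and Cyp2b9 was 0.47 by DESeq2 and 0.52 without the filter, all with an adjusted p above 0.05. With 6 to 42 reads per male group on Cyp2b9 and Cyp2b10 depth limits what could be seen there. No paired analysis was made, since no label used here pairs mice across groups.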

Other observations

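Lists of zonation genes were fixed beside the family because P450 genes differ along the liver lobule. Of 19 pericentral hepatocyte genes tested, 1 was higher in females in wild type (the vasopressin receptor Avpr1a, log2 fold change 1.14, adjusted p = 0.0176, edgeR) and 0 in Siah2 KO. Of 14 periportal genes tested, 3 were higher in wild type females (Aldh1b1 1.43, adjusted p = 0.0218, Ctsc 1.06, adjusted p = 0.0364, and the glutaminase Gls2 1.03, adjusted p = 0.0114, edgeR), and in Siah2 KO Ctsc was higher (1.23, adjusted p = 0.0212) and Cyp2f2 lower. Of all genes, 2.27% were called higher in females in wild type and 1.75% in Siah2 KO. The periportal median was 0.49 in Siah2 KO beside 0.00 over all genes, with 7 of 14 at an unadjusted p under 0.05, and 0.22 in wild type beside 0.02, with 4 of 14. Among 12 endothelial and stellate markers tested, 1 was called, Clec4g (0.83, adjusted p = 0.0353, wild type), and of 2 bile duct and 3 fat and acinar markers tested 0 were called by sex. The erythroid gene Alas2, the red blood cell marker tested, was lower in females (−2.05, adjusted p = 0.000269, in wild type and −3.15, adjusted p = 3.76e-06, in Siah2 KO, edgeR). The 5 sex-linked genes of the check were called in the direction of the sex labels in both genotypes. By Siah2 genotype, 0 genes of any of these lists were called within either sex, where 0% of all genes tested were called.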
